A study of Mus musculus with 26 samples.

Results

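Sperm DNA methylation was compared between the first-generation sons of transplanted males (SSCT F1) and sons of control males (control F1), 5 mice per group, by reduced-representation bisulfite sequencing (RRBS). The comparison rests on the 712709 autosomal CpG positions with at least 10 reads in each of these 10 libraries, of 3813297 positions listed in any of the 26 libraries of the series, and on the 137299 windows of 1000 bp that hold them. In SSCT (spermatogonial stem cell transplantation), stem cells of newborn DBA/2J testes were propagated in culture and transplanted into sterile W/W-v males, which then sired offspring with DBA/2J females. The control F1 mice had DBA/2J fathers and mothers. All 10 mice are labelled as DBA/2J males, their epididymal sperm was collected at 3 months of age, and they carried no engineered allele according to the labels. The study's methods state that brothers were avoided within a group, but with 3 fathers per group some of the 5 mice of a group share a father, and the labels do not tie mice to fathers or to donor cell cultures. The DNA that these F1 sperm carry had passed through a further generation since the transplantation, and mice of a group with the same father are not fully independent.

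The names of these 10 libraries conflict. Their treatment label is SSCT for 5 and WT for 5, and the study's heatmap calls them SSCT F1 and control F1, whereas their sample titles call the same sets SSCT F2/P and SSCT F2/M (sons of the second generation by the paternal or the maternal line) and give the F1 names to 10 other libraries. The names of the treatment label and the heatmap were followed here, and the replicate numbers are those of the titles. Every difference below is one between these 2 sets of 5 libraries.

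In mammalian germ cells, nearly all DNA methylation is erased and then written anew before birth in the male line, by the de novo methyltransferases and their cofactor DNMT3L. Mature sperm therefore carry methylated intergenic DNA and repeats, unmethylated CpG-rich promoters, and a paternal imprint, which is methylation at a few control regions such as those of H19, Meg3 and Rasgrf1 and its absence at maternally imprinted promoters. RRBS reads the short, CpG-rich pieces that a restriction digest of the genome leaves. Bisulfite changes unmethylated cytosines only, and the percent of reads that keep a cytosine is taken as its methylation level.

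Positions with extremely high coverage were set aside, which left 710389 autosomal CpG positions in 136710 windows. The 2 strands of a CpG are separate positions. The libraries held between 49632926 and 75299581 reads at listed CpG positions, with a median coverage of the compared positions of 32.0 to 47.0 reads, and these totals differed between the groups by less than their spread (exact permutation test, two-sided, p = 0.611). Methylated control DNA added to the libraries was read as 98.37 to 98.90% methylated and unmethylated control DNA as 0.542 to 1.13%.

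The paternal imprint checks the label of the tissue. At the upstream control regions of H19, Meg3 and Rasgrf1, over 22 compared positions, every mouse of both groups was at 90.2 to 100%. At the starts of 11 maternally imprinted genes, over 185 positions, every mouse was at 0 to 17.2%. Both are the states of sperm. Somatic DNA would hold intermediate levels at the control regions, and at those starts that themselves carry the maternal mark. Not every one of the 11 starts need lie in the maternally methylated part of its gene, so the 185 positions are the weaker check. Methylation of the H19 region goes with silence of the gene on the paternal chromosome. The region averaged 97.6% ± 2.29 (SD, n = 5) in the SSCT F1 mice and 98.8% ± 1.63 (SD, n = 5) in the controls. Peg3, a zinc-finger gene expressed from the paternal allele, averaged 1.70% ± 1.67 and 2.23% ± 1.64. Of the 14 loci, the single compared CpG at the start of Snrpn, a splicing-factor gene of the Prader-Willi region, was the locus at which the groups did not overlap, and it is named after its values were seen. The control F1 mice had levels there of 6.90, 17.2, 8.65, 8.82 and 13.6%, and the SSCT F1 mice of 0, 0, 2.76, 0 and 0%, from 58 to 145 reads per mouse (two-sided exact permutation p = 0.00794, the lowest value that 5 mice against 5 can give, and 0.111 after Benjamini-Hochberg adjustment over the 14 loci). No position at these 14 loci was called as different by the test on single CpGs described further on.

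The first question was whether the 2 sets of sperm differ as wholes. Mean methylation over all compared CpGs was 32.40, 32.44, 32.46, 32.24 and 32.50% in control F1 replicates 1 to 5 and 32.18, 32.44, 32.15, 32.45 and 32.44% in SSCT F1 replicates 1 to 5. SSCT F1 replicates 1 and 3 and control F1 replicate 4 were the low mice, and the other 7 lay between 32.40 and 32.50%. The difference of the means was -0.0789 points (32.33 ± 0.153 against 32.41 ± 0.101, SD) and did not pass an exact permutation test over mice (two-sided, p = 0.262, 0.429 after Benjamini-Hochberg adjustment over 6 quantities).

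The shares of low, intermediate and high CpGs did not separate the groups either. CpGs above 90% methylation made up 25.49, 25.61, 25.71, 25.65 and 25.30% of positions in control F1 and 25.32, 25.17, 25.03, 25.38 and 25.54% in SSCT F1, so that 3 of the 5 control mice lay above all SSCT mice. That difference had the smallest p of the 6 and did not pass the exact test either (-0.260 points, p = 0.0635, adjusted 0.381). CpGs at 10 to 90% made up 15.3% ± 0.314 of positions in SSCT F1 and 14.9% ± 0.408 in control F1 (exact p = 0.151), and CpGs below 10% made up 59.41% ± 0.226 and 59.52% ± 0.264 (exact p = 0.548).

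A further measure counts CpGs at which a single mouse stands apart, by more than 50 percentage points from the median of the other 9 mice while those 9 lie within 20 points of each other. Gains of methylation of this kind numbered 226, 476, 567, 584 and 208 in the control F1 mice and 272, 342, 228, 343 and 386 in the SSCT F1 mice. Losses numbered 210, 292, 401, 452 and 173 in control F1 and 387, 259, 205, 247 and 249 in SSCT F1. The highest totals, 968 and 1036, were those of control F1 replicates 3 and 4, which had 49632926 and 50596298 reads, and the lowest, 381, was that of control F1 replicate 5, which had 72218747 reads. SSCT F1 replicate 5, with 50626343 reads, had 635, and control F1 replicate 2, with 65172395 reads, had 768, so the totals did not follow the reads in every library. The part of depth in these counts was not tested. The groups overlapped for gains and for losses, with a mean of 584 ± 88.5 per SSCT F1 mouse and 718 ± 300 per control F1 mouse (difference -134, exact permutation test, two-sided, p = 0.373).

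**Figure D1:**
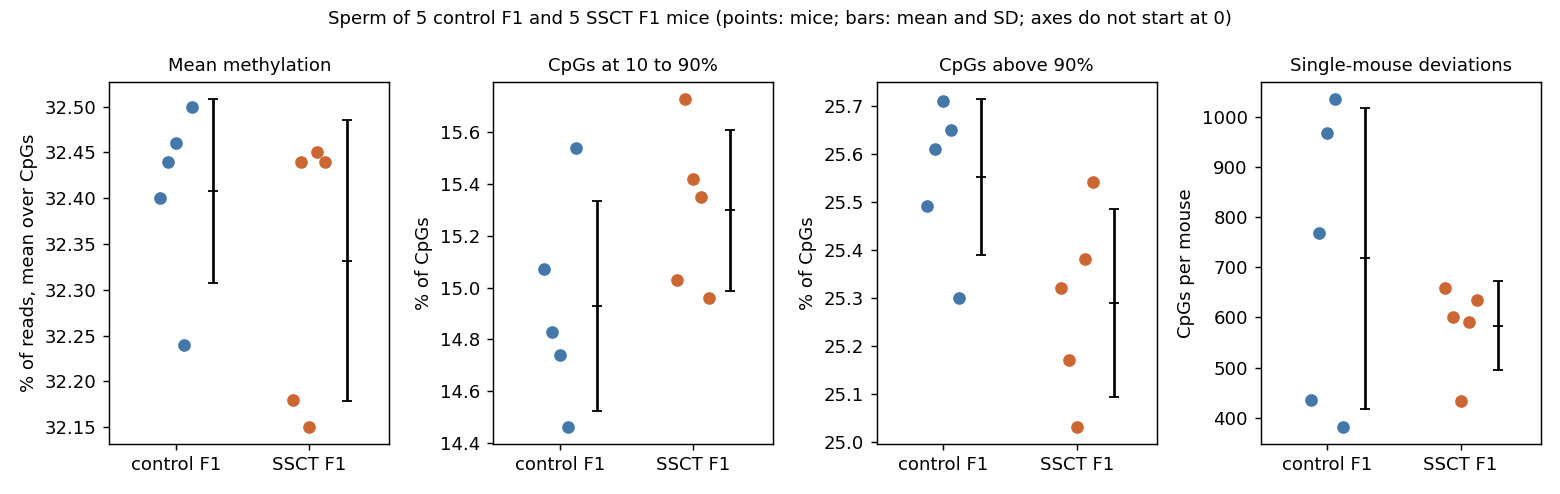
Each point is the sperm of 1 mouse, with control F1 in blue, SSCT F1 in orange and the mean and SD as bars. The y axes give mean methylation in percent, the percent of CpGs at 10 to 90% and above 90%, and the number of CpGs at which that mouse stands apart, and the groups overlap in all 4 panels.

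Distances between mice within a group and between the groups were of similar size. The mean absolute difference of methylation level between 2 mice was 5.25 points for the 10 pairs of SSCT F1 mice (5.18 to 5.32), 5.29 points for the 10 pairs of control F1 mice (5.01 to 5.55) and 5.27 points for the 25 pairs of mice from different groups (5.05 to 5.49). The between-group mean minus the within-group mean was -0.0005 points (exact permutation test over all regroupings of the mice, one-sided, p = 0.492). The closest pair, within control F1, differed by 5.01 points, so no 2 libraries held the same values. This distance cannot tell whether 2 libraries came from the same mouse, since the counting of reads adds to it.

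Single CpGs were then compared by logistic regression of the reads on group, with a chi-square likelihood-ratio test that leaves out the spread between mice and Benjamini-Hochberg q-values over all chromosomes. The rule for a call is the one the study's methods use. At a q under 0.01 and a difference of pooled reads of over 25 percentage points, 2813 autosomal CpGs were called (DMCs, differentially methylated CpGs). They made up 0.396% of the CpGs tested. SSCT F1 sperm was lower (hypomethylated) at 1528 of them, 0.215% of those tested, and higher (hypermethylated) at 1285, 0.181%. The same test on windows called 484 DMRs (differentially methylated regions), 0.354% of windows, of which 285 were hypomethylated, 0.208%, and 199 hypermethylated, 0.146%. Over all autosomal CpGs tested, 35.1% were lower, 34.6% higher and 30.3% equal, and the median absolute difference was 1.57 points.

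The calls depend on how the spread between mice enters the test. At the 84958 CpGs with a mean level of 10 to 90%, the variance between mice was 6.80 times that expected from counting reads, at the median, and it was 6.22 times within SSCT F1 and 6.40 times within control F1. At the DMCs the median was 7.45 times. An F test that scales the statistic by this spread called 0 CpGs and 0 windows, with a smallest q of 0.619 and 0.384, and 1471 CpGs and 246 windows of over 25 points had an unadjusted p under 0.05. Limma, fitted to the log2 ratio of the methylated and unmethylated counts, also called 0 CpGs and 0 windows, with 1785 and 297 at an unadjusted p under 0.05. At 239 DMCs, 8.50% of them, the levels of the 5 SSCT F1 mice did not overlap those of the 5 control F1 mice, and over all autosomal CpGs 0.141% had groups that did not overlap. For DMRs the number was 38, 7.85% of them, against 0.464% of all windows. The larger share among the called is fixed in part by the calling itself, which asks for a large difference. Leaving out any single library at the same positions kept between 2079 and 2336 of the DMCs, and 741 (26.3%) were called whichever library was left out. Of the DMRs, 130 (26.9%) were.

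Nearly all called CpGs had intermediate levels, which the threshold of 25 points itself largely fixes, since a CpG with a mean close to 0 or 100% leaves little room for such a difference. Of the 439345 CpGs with a mean level below 10%, 11 were called (0.00250%), and of the 186086 at 90% or more, 5 (0.00269%). Between these, 1.39% were called at 10 to 25%, 5.64% at 25 to 50%, 5.85% at 50 to 75% and 1.79% at 75 to 90%, so that 2797 of the 2813 DMCs came from 12% of the CpGs. By chromosome, the share called lay between 0.304% on chromosome 2 and 0.485% on chromosome 10.

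DMRs were mostly windows with 1 compared position. Such windows made up 360 of the 484 DMRs (74.4%) and were called at a share of 0.959%. The share was 0.242% with 2 positions, 0.143% with 3 to 4 and 0.0149% with 5 to 9, where 3 of 20108 windows were called. Of the 16673 windows with 10 or more positions, 0 were called, their median absolute difference was 0.515 points, and 99% of them differed by less than 5.84 points. The 99th percentile was 24.8 points for windows with 1 position. The neighbouring windows of DMRs did not move with them: 194 neighbours were tested, 105 differed in the direction of the DMR and 86 in the opposite direction, with a median of 0.19 points in the direction of the DMR.

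**Figure D2:**
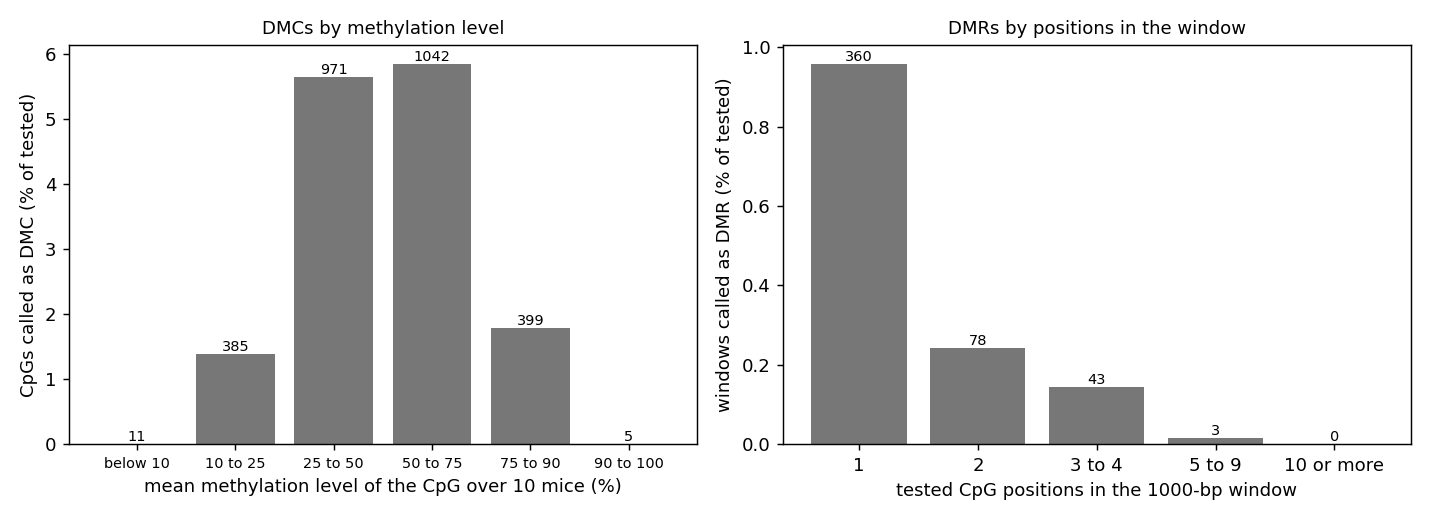
On the left, bars give the percent of CpGs called as DMC (y axis) by the mean methylation level of the CpG over the 10 mice (x axis), and on the right the percent of windows called as DMR by the number of compared positions in the window, with the number called above each bar. The share called rises to 5.85% at 50 to 75% methylation and falls from 0.959% of windows with 1 position to 0 of 16673 windows with 10 or more.

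A methylated CpG of double-stranded DNA is normally methylated on both strands, because the maintenance methyltransferase DNMT1 copies the mark to the new strand after replication. Reads of the 2 strands are separate reads, so the opposite strand measures the same CpG of the same mice again. It was compared for 345 of the DMCs. The opposite strand differed in the direction of the DMC at 172, in the other direction at 168 and not at all at 5. The median difference at the DMC was 28.9 points and that of its opposite strand 0.00 points in the DMC's direction (quartiles -5.9 and 7.2). Among the 345, the opposite strand was itself called for 10, of which 4 in the same direction. Mean levels of the strands were alike across all 187218 such positions (r = 0.953, across positions of the same mice), but the deviations of single mice from the mean of the 10, at the 16372 positions with intermediate levels, had a correlation of 0.013 between the strands.

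Neighbours on the same strand 2 to 20 bp away, which the same 50 bp reads can span, behaved otherwise. They differed in the DMC's direction at 982 of 1247 DMCs (78.7%), with a median of 11.97 points beside 29.0 points at the DMC. For 269 of the 1247 the neighbour was itself called in the same direction. The deviations of single mice had a correlation of 0.413 over 67513 pairs. At 51 to 500 bp from the DMC, beyond the length of a read, 823 of 1658 nearest positions differed in the DMC's direction and 785 in the other, with a median of 0.00 points and a correlation of 0.006 over 333964 pairs. Among all tested pairs with a difference at both positions, the direction was shared at 53.7% for 2 to 20 bp. It was shared at 50.1% for 51 to 500 bp and at 50.0% for opposite strands. The direction at DMCs was thus mostly shared with same-strand positions 2 to 20 bp away, at a smaller size. It was shared about as often as not with the opposite strand and with positions beyond the read. The part of reads copied from 1 molecule in this pattern was not tested.

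**Figure D3:**
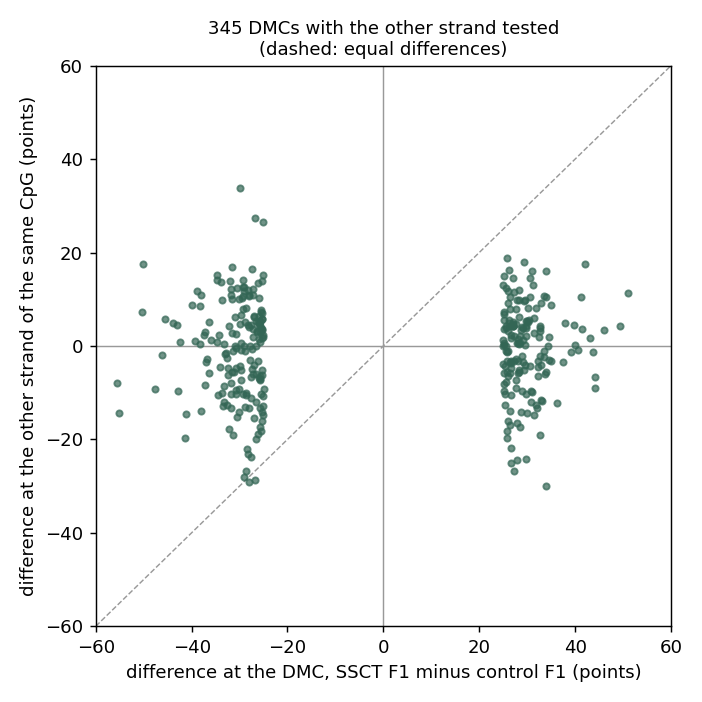
Each point is 1 of the 345 DMCs whose opposite strand was also compared, with the difference SSCT F1 minus control F1 in percentage points at the DMC on the x axis and at the opposite strand on the y axis. The points form 2 clouds beyond 25 points to each side on the x axis and scatter around 0 on the y axis, away from the dashed line of equal differences, with a median of 0.00 points in the DMC's direction.

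Gene starts were examined next, since promoter methylation is the form most tied to silencing. A start region is taken as the 300 bases from 250 before to 50 after the start of a gene in RefSeq. Compared CpGs lay in 10151 autosomal start regions, and 96.4% of these 85697 CpGs had a mean level below 10%. In 34 start regions (0.335%) at least 1 CpG was called, 39 DMCs in all (0.0455% of the CpGs in start regions), of which 19 were hypomethylated and 20 hypermethylated. In 30 of the 34 a single CpG was called. The start regions of protein-coding genes in which the groups did not overlap at a DMC, or in which 2 or more CpGs were called, are shown here because they hold the promoter differences whose mice separate best or that span several CpGs. They were chosen by these values. The sequences are from RefSeq on GRCm38.p6, written 5′ to 3′ along the gene, with the called CpGs in capitals. Uck2 (chr1:167285078-167285377, minus strand), Klhl41 (chr2:69669870-69670169, plus strand), Ppp1r1c (chr2:79707530-79707829, plus strand), Cabp2 (chr19:4083269-4083568, plus strand), Sncg (chr14:34374620-34374919, minus strand) and Kcnmb2 (chr3:31902453-31902752, plus strand) read as follows.
Uck2: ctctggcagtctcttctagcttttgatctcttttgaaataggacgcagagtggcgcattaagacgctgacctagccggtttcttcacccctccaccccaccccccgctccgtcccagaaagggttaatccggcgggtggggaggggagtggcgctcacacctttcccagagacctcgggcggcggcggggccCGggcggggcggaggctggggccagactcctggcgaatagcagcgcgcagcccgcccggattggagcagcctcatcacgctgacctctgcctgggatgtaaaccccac
Klhl41: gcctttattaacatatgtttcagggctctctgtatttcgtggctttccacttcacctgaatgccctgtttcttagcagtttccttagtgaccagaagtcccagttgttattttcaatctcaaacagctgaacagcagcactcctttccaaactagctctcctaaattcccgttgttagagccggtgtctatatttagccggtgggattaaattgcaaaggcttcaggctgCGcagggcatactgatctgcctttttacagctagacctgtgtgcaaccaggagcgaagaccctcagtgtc
Ppp1r1c: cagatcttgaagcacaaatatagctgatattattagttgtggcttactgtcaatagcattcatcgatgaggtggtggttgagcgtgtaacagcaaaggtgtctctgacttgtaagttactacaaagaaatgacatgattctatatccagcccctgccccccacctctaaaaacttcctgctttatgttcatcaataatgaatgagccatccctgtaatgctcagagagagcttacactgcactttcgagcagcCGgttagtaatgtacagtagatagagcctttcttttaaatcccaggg
Cabp2: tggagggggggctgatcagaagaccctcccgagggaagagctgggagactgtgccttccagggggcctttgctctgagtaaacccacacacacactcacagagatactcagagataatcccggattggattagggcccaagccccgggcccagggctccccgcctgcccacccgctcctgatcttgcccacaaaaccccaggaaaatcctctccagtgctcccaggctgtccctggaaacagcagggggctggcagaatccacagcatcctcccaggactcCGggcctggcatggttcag
Sncg: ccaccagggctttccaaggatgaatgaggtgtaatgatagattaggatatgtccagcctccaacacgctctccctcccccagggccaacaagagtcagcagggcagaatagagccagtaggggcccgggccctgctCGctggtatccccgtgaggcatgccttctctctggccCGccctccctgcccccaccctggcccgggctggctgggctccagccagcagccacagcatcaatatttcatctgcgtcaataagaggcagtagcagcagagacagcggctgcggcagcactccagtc
Kcnmb2: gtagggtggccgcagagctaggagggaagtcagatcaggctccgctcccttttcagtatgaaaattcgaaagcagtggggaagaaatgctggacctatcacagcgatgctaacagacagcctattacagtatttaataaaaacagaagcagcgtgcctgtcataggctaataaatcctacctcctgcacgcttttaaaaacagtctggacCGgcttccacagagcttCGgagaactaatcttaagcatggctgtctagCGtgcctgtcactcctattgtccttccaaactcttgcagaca

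Uck2 encodes a kinase that salvages uridine and cytidine, and its start is a CpG-dense region with 22 CpGs in the 300 bases. The called CpG, 58 bases before the start (chromosome 1, position 167285185), was at 0, 0, 0, 0 and 2.38% in the control F1 mice and at 12.8, 25.9, 55.6, 69.2 and 41.7% in the SSCT F1 mice, from 12 to 42 reads per mouse. All SSCT F1 mice lay above all control mice, the difference was 35.4 points (q = 1.34e-12) and it stayed called without any single library. The other 13 compared positions of the region lay between 0 and 60% in single mice, with a median difference of 0.00 points. The 9 other offspring libraries with enough reads there, whose group is named in conflicting ways, ranged from 0 to 14.6% with a median of 0%.

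Klhl41, a kelch protein of muscle, was lower in SSCT F1 at the called CpG 20 bases before its start. The control F1 mice had 29.4, 20.0, 55.2, 47.1 and 31.4% and the SSCT F1 mice 11, 15, 8.57, 13 and 0% (difference -26.0 points, q = 3.66e-08). The groups did not overlap, and the other compared CpG of the region differed by -18.1 points. The difference fell below the threshold without control F1 replicate 3 (-21.6), control F1 replicate 4 (-22.9) or SSCT F1 replicate 5 (-24.9). At this CpG of Klhl41 the 10 other offspring libraries ranged from 0 to 40.0% with a median of 7.45%. Ppp1r1c, an inhibitor subunit of protein phosphatase, had a single compared CpG, 3 bases after its start, at 0, 24.3, 29.6, 28.8 and 0% in control F1 and at 34.2, 43.8, 32.4, 50.0 and 42.9% in SSCT F1 (26.1 points, q = 1.01e-08). Without control F1 replicate 5 this difference was 16.2 points, and without SSCT F1 replicate 2 it was 24.7, both below the threshold. The other offspring libraries spanned 0 to 100% at this CpG.

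Cabp2, a calcium-binding protein of sensory cells, also had a single compared CpG, 31 bases after its start. The control F1 mice were at 5.00, 0, 13.3, 43.5 and 21.4% and the SSCT F1 mice at 63.0, 68.1, 46.2, 70.0 and 58.3%, from 10 to 47 reads (40.8 points, q = 1.56e-09). The groups did not overlap, with control F1 replicate 4 close to SSCT F1 replicate 3, and the call held without any single library. The 9 other offspring libraries with enough reads there ranged from 5.00 to 100% with a median of 33.3%. Founder males were at 53.8, 27.0 and 33.3% (control F0) and at 66.7 and 0% (SSCT F0). For each of the 4 CpGs of Uck2, Klhl41, Ppp1r1c and Cabp2, an exact permutation test over mice gave p = 0.00794 (two-sided), the smallest possible value, for CpGs that had been picked because their mice separate. None of these 4 had its opposite strand compared.

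Sncg, gamma-synuclein, had 2 called CpGs on 1 strand, 114 and 77 bases before its start. The same 50 bp reads can span both, so they need not be separate measurements. At the first, the control F1 mice had 61.5, 20.8, 78.6, 75 and 51.2% and the SSCT F1 mice 18.8, 0, 10.7, 33.3 and 2.86% (-39.8 points, q = 5.65e-10, exact p = 0.0159), and control F1 replicate 2 lay among the SSCT F1 mice. At the CpG 77 bases before the start the difference was -30.8 points, and its opposite strand differed by -9.4 points. Without SSCT F1 replicate 2 this second CpG differed by -23.9 points and was not called.

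Kcnmb2, a beta subunit of calcium-activated potassium channels, had 3 compared CpGs, all called and all higher in SSCT F1, within 50 bases. All 3 lay on 1 strand with 16 to 50 reads per mouse. The same 50 bp reads can span them, so they need not be separate measurements. At the CpG 23 bases before the start, control F1 had 0, 20.0, 5.88, 0 and 34.0% and SSCT F1 82.1, 62.5, 70.0, 53.8 and 0% (38.4 points, q = 3.76e-10, exact p = 0.0556). SSCT F1 replicate 5 was with the low control mice, and the other 4 lay above all of them. The CpGs 40 bases before and 8 bases after the start differed by 29.4 and 28.3 points, and each lost its call without control F1 replicate 1 (21.0 and 20.6) and without 1 SSCT F1 mouse (23.5 without replicate 2 and 24.3 without replicate 3). Over all 39 DMCs in start regions, 11 stayed called whichever library was left out.

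By window, 11 DMRs overlapped a start region, 0.0780% of the 14100 windows that do, and 9 of them rested on 1 position. Of these 11 windows, 5 were hypomethylated and 6 hypermethylated. The largest difference was at Tas2r126, a bitter taste receptor, where the control F1 mice had 54.5, 0, 0, 0 and 55.0% and the SSCT F1 mice 0, 57.5, 100, 80.5 and 68.2% (55.8 points, q = 1.45e-21, exact p = 0.0794). SSCT F1 replicate 1 was at the lowest control level. The other named genes with a start in such a window were Ppp1r1c, already given, Mrm2 and Nudt1, which share a window (35.6 points), Cd37, a tetraspanin of blood cells (26.2 points), and Ppp1r16b, another phosphatase subunit (-27.0 points), and the rest were noncoding or predicted genes, Gm40597, 4930554C24Rik, 1700065L07Rik, Gm51800, Gm11729 and Gm46989 (-36.4 to 30.3 points). The window of Tas2r126 was the 1 of the 11 that stayed called whichever library was left out.

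DMRs with at least 3 compared positions numbered 46 of 66914 such windows, 30 hypomethylated and 16 hypermethylated, and in 3 of them the groups did not overlap, against 0.643% of all windows of this kind. The first of the 3 overlaps no gene of the RefSeq table, at chr1:86310001-86311000. There the control F1 mice had 68.6, 53.6, 58.9, 57.8 and 57.5% and the SSCT F1 mice 82.7, 100, 100, 100 and 77.8%, from 45 to 183 reads (32.9 points, q = 6.68e-27). The window stayed called without any single library. Of the founders, 2 control F0 mice with enough reads were at 68.0 and 78.3% and 1 SSCT F0 mouse at 100%, and the other 8 offspring libraries covered ranged from 2.56 to 100%.

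The second, chr7:56042001-56043000 in the predicted gene Gm34121, was at 46.3, 48.0, 1.43, 36.9 and 42.2% in control F1 and at 56.3, 72.0, 85.9, 56.2 and 79.3% in SSCT F1 (30.2 points, q = 3.45e-22). Control F1 replicate 3 was far below the others, and without it the difference was 24.9 points and the window was not called. It was not called with at least 20 reads per position either (20.9 points). The third, chr8:46228001-46229000, again overlapping no gene, was at 79.2, 34.0, 39.4, 57.1 and 60% in control F1 and at 0, 31.4, 22.1, 33.9 and 19.4% in SSCT F1 (-29.7 points). The nearest mice of the groups were at 34.0 and 33.9%, and there was no call without control F1 replicate 1 (-24.4 points). An exact permutation test gave p = 0.00794 for each of these 3 windows, which were picked because their mice separate.

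Of the 20 DMRs of at least 3 positions with the largest differences, 10 in each direction, 11 overlapped an annotated gene and 9 did not. The largest, at Gm8268 on chromosome 8 (chr8:34505001-34506000), was at 73.3, 100, 100, 100 and 61.3% in control F1 and at 63.4, 33.3, 0, 55.6 and 50.8% in SSCT F1 (-40.2 points, q = 1.99e-36, exact p = 0.0159), with overlap between SSCT F1 replicate 1 and control F1 replicate 5. Cfap58, a gene of the sperm flagellum, held a DMR of 4 positions at 86.0, 100, 100, 100 and 68.2% in control F1 and 48.1, 57.4, 83.3, 55.2 and 53.1% in SSCT F1 (-31.7 points, q = 1.84e-46, exact p = 0.0159). SSCT F1 replicate 3 lay among the control mice, and the 8 other offspring libraries with enough reads there had a median of 99.1%. Pebp4, a phosphatidylethanolamine-binding protein, ranged from 44.4 to 86.3% in control F1 and from 5.33 to 73.8% in SSCT F1 (-34.5 points, exact p = 0.0873).

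Other gene-bound windows of the 20 held wider spreads within the groups. Marchf3, a ubiquitin ligase, was at 0, 47.7, 87.5, 4.57 and 100% in control F1 and at 0, 0, 0, 0 and 16.7% in SSCT F1 (-31.3 points, exact p = 0.0873), and lost its call without control F1 replicate 3 (-19.4) or 5 (-22). A window shared by Cdk5 (a neuronal kinase) and Asic3 (an acid-sensing channel) was at 30, 61.8, 0, 75 and 41.2% in control F1 and at 42.6, 75, 75, 75 and 75% in SSCT F1 (31.1 points), and was not called without control F1 replicate 3 (18.5). Dlg4, the postsynaptic scaffold PSD-95, was at 54.2, 12.5, 64.7, 0 and 31.1% against 81.2, 33.9, 10.0, 75 and 69.2% (29.4 points, exact p = 0.262). It lost its call without control F1 replicate 4 (21.4), SSCT F1 replicate 1 (20.9) or SSCT F1 replicate 4 (24.6). The other 4 gene-bound windows of the 20 lay in Bag2, which is described with the genes the study names, and in the predicted or noncoding genes 9330111N05Rik (-31.3 points), Gm40767 with Gm31182 (-30.6) and Gm33408 (33.9). Of all 20 windows, 10 stayed called whichever library was left out and 10 did not.

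**Figure D4:**
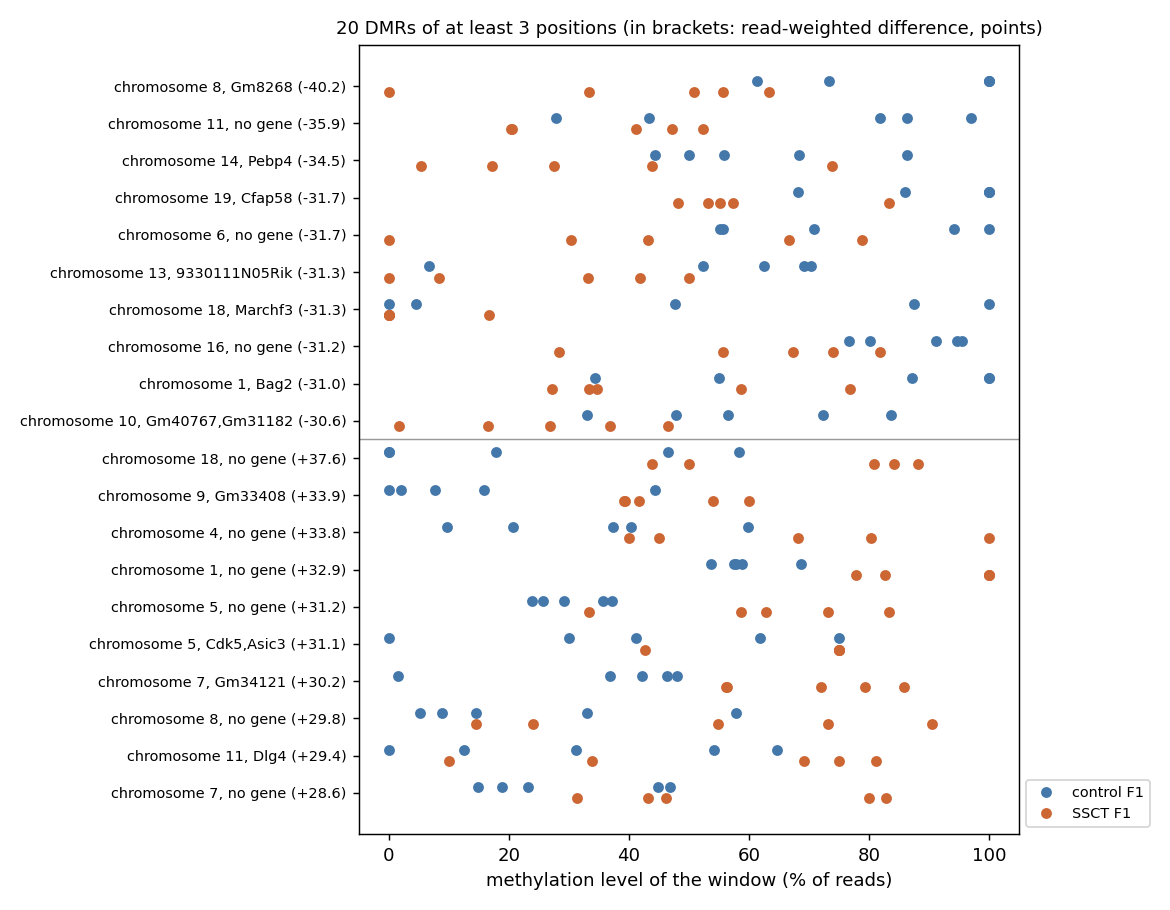
For the 10 hypomethylated (top) and 10 hypermethylated (bottom) DMRs of at least 3 positions with the largest differences, each point is the methylation level of the window in 1 mouse in percent, control F1 in blue and SSCT F1 in orange. The groups overlap in all but the chromosome 1 window at 32.9 points and the Gm34121 window at 30.2 points.

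Genes of the germ line and of the methylation machinery were read by lists, each gene with 2000 bp on either side. The background is 0.396% of CpGs and 0.354% of windows called, and the median difference over all autosomal CpGs was 0.00 points, as it was in each of the 9 lists. The 7 paternally methylated imprinted loci held 309 CpGs with 0 DMCs and 45 windows with 0 DMRs. The 23 maternally methylated imprinted genes covered held 811 CpGs, of which 1 was hypomethylated and 1 hypermethylated, both at Usp29, which shares its imprinted domain with Peg3. The hypomethylated CpG of Usp29 (-28.2 points) made the 1 DMR of 99 windows, with 50.0, 100, 100, 60 and 76.1% in control F1 and 35.3, 65.0, 38.5, 54.2 and 55.6% in SSCT F1. It lost its call without control F1 replicate 2 (-19.4) or SSCT F1 replicate 1 (-23.6).

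The 16 covered genes of the DNA methylation machinery held 734 CpGs with 0 hypomethylated and 2 hypermethylated DMCs, at Tet1, which oxidises methylcytosine, and Uhrf1, which brings DNMT1 to replicated DNA. The CpG in Tet1, a DMR of its own, was at 100, 0, 0, 0 and 100% in control F1 and at 79.5, 34.8, 100, 100 and 69.7% in SSCT F1, from as few as 11 reads (30.6 points, q = 0.000253, exact p = 0.190). It lost its call without control F1 replicate 2 (22.4), 3 (21.6) or 4 (17.1). Uhrf1 was at 0 in 4 of 5 control mice and at 0 to 74.1% in SSCT F1 (25.4 points), and was not called without any 1 of 6 libraries (12.2 to 24.7 points).

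All 25 spermatogonial stem cell genes were covered, with 1609 CpGs, 1 hypomethylated and 4 hypermethylated DMCs (0.311%), and 1 DMR in 203 windows. Foxo1, a transcription factor needed for stem cell maintenance, held the DMC whose groups did not overlap. Its CpG at position 52270122 of chromosome 3, within the gene, was at 0, 0, 6.67, 0 and 0% in control F1 and at 22.9, 39.4, 31.0, 38.5 and 36.0% in SSCT F1 (30.9 points, q = 1.10e-11, exact p = 0.00794), and stayed called without any single library. It is singled out because its mice separate, which fixes the exact p. The F test gave it an unadjusted p of 0.000122, and the smallest q of that test over all CpGs was 0.619. The other 8 offspring libraries covered ranged from 0 to 17.6%, and the founders from 0% in an SSCT F0 mouse to 18.8% in a control F0 mouse. Among the 95 compared CpGs of Foxo1 it was the 1 called, and its opposite strand was not compared. Dmrt1, a regulator of the spermatogonial state, was at 42.9, 5.00, 0, 29.0 and 40.9% against 100, 100, 100, 19 and 64.3% at 1 CpG (44.2 points, exact p = 0.0397), called without any single library as well. The DMR was at Itga6, an integrin used to enrich these stem cells, with 2 positions at 0, 19, 13.3, 17.3 and 11.5% in control F1 and 50.0, 32.1, 47.8, 0 and 52.1% in SSCT F1 (26.8 points, exact p = 0.0635). It fell below the threshold without SSCT F1 replicate 5 (20.4) or 1 (24.8) or control F1 replicate 1 (24.7). Pax7 differed by 25.9 points and Nanos2 by -30.4 points at 1 CpG each, the latter through 2 control mice at 100 and 65.4% with all other mice at 0.

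Of the 17 pluripotency genes covered, with 755 CpGs, Klf4 held the 1 DMC (-27.7 points) and there was no DMR in 94 windows. Meiosis and piRNA pathway genes (24 covered, 501 CpGs) held 2 hypermethylated DMCs, at Tdrd1, a scaffold of the piRNA granules, and Tex14, a protein of the bridges between germ cells, and 0 DMRs in 82 windows. At Tdrd1 all SSCT F1 mice were at 100% and control F1 mice at 68.2, 73.1, 63.6, 26.3 and 100% (31.7 points, 22 without control F1 replicate 4). The 24 covered spermiogenesis and sperm structure genes held 501 CpGs with 0 DMCs and 82 windows with 0 DMRs. The 25 cyclic nucleotide phosphodiesterase genes held 1416 CpGs with 5 hypomethylated and 4 hypermethylated DMCs (0.636%) and 1 DMR, at Pde8a (25.1 points), whose call was lost without any 1 of 8 libraries (21.9 to 25). The study names Cnp, Pde4b, Pde4a, Pde5a and Pde2a from the comparison of F1 sperm, and each holds 1 of the 9 DMCs, so the share in this list is not independent of the choice of the list. Over these 8 lists, 4 of 21 DMCs (at Foxo1, Dmrt1, Cnp and Pde4b) and 0 of 4 DMRs stayed called whichever library was left out. The share of CpGs called in these 8 lists lay between 0 and 0.636%, beside the background of 0.396%.

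The genes that the study names for F1 sperm were chosen on these same libraries, so their differences are not independent of the choice and are given as values only. Of the 29 names, 26 matched a covered autosomal gene, with 30 DMCs among 953 CpGs (3.15%) and 22 DMRs among 185 windows (11.9%), at 24 genes, some of which share a window. Tet1, given above, is also one of them. Of the 22 DMRs, 19 rested on 1 position and 2 on 3 or more. The groups did not overlap in 7.85% of all DMRs and 0.464% of all windows, and in 2 of these 22. The first of the 2 is Mt3, a metallothionein of the nervous system, at 30.8, 35.7, 0, 22.7 and 35.4% in control F1 and 100, 52.6, 43.2, 36.8 and 100% in SSCT F1 (43.6 points). The second is Pou2f2, a transcription factor of B cells, at 11.8, 12, 50.0, 19.4 and 45.2% against 68.8, 52.8, 80.0, 52.2 and 68.0% (36.1 points). Both stayed called without any single library. The other offspring libraries with enough reads ranged from 0 to 100% at Mt3 and from 9.30 to 81.8% at Pou2f2. Control F0 founders were at 38.5 and 62.5% at Mt3 and at 74.1, 76.1 and 42.9% at Pou2f2.

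Tal2, a transcription factor of the helix-loop-helix family, had 1 called position of 16 compared. The control F1 mice were at 0, 35.7, 57.6, 41.2 and 27.9% and the SSCT F1 mice at 0, 8.57, 6.52, 0 and 0% (-29.6 points, exact p = 0.0476), so that 4 control mice lay above all SSCT F1 mice and 1 was at 0 with them. The call held without any single library. At Zfp229, whose gene region had 1 compared CpG, all SSCT F1 mice were at 0 and control F1 mice at 45.2, 30.8, 0, 28.2 and 17.2% (-27.7 points, -22.6 without control F1 replicate 1). Bag2, a co-chaperone, had a DMR of 3 positions at 87.1, 100, 100, 34.4 and 55.0% against 33.3, 34.6, 58.7, 27.2 and 76.9% (-31.0 points, exact p = 0.119, -24.8 without control F1 replicate 3). Gpx8, a glutathione peroxidase, ranged from 62.5 to 100% in control F1 and from 32.9 to 100% in SSCT F1 (-32.8 points). The opposite strand was compared for 1 of the 30 DMCs, at Epha2, an ephrin receptor, where it differed by -12.6 points beside -32.6 points at the DMC. Epha2 held 5 DMCs, lower in SSCT F1 at -32.6, -32.4 and -25.9 points and higher at 29.3 and 26.9 points. The lower ones lie on 1 strand, so close that the same reads can span them, and so do the higher ones. Neither set need be separate measurements. Of the 22 DMRs, 8 stayed called whichever library was left out.

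**Figure D5:**
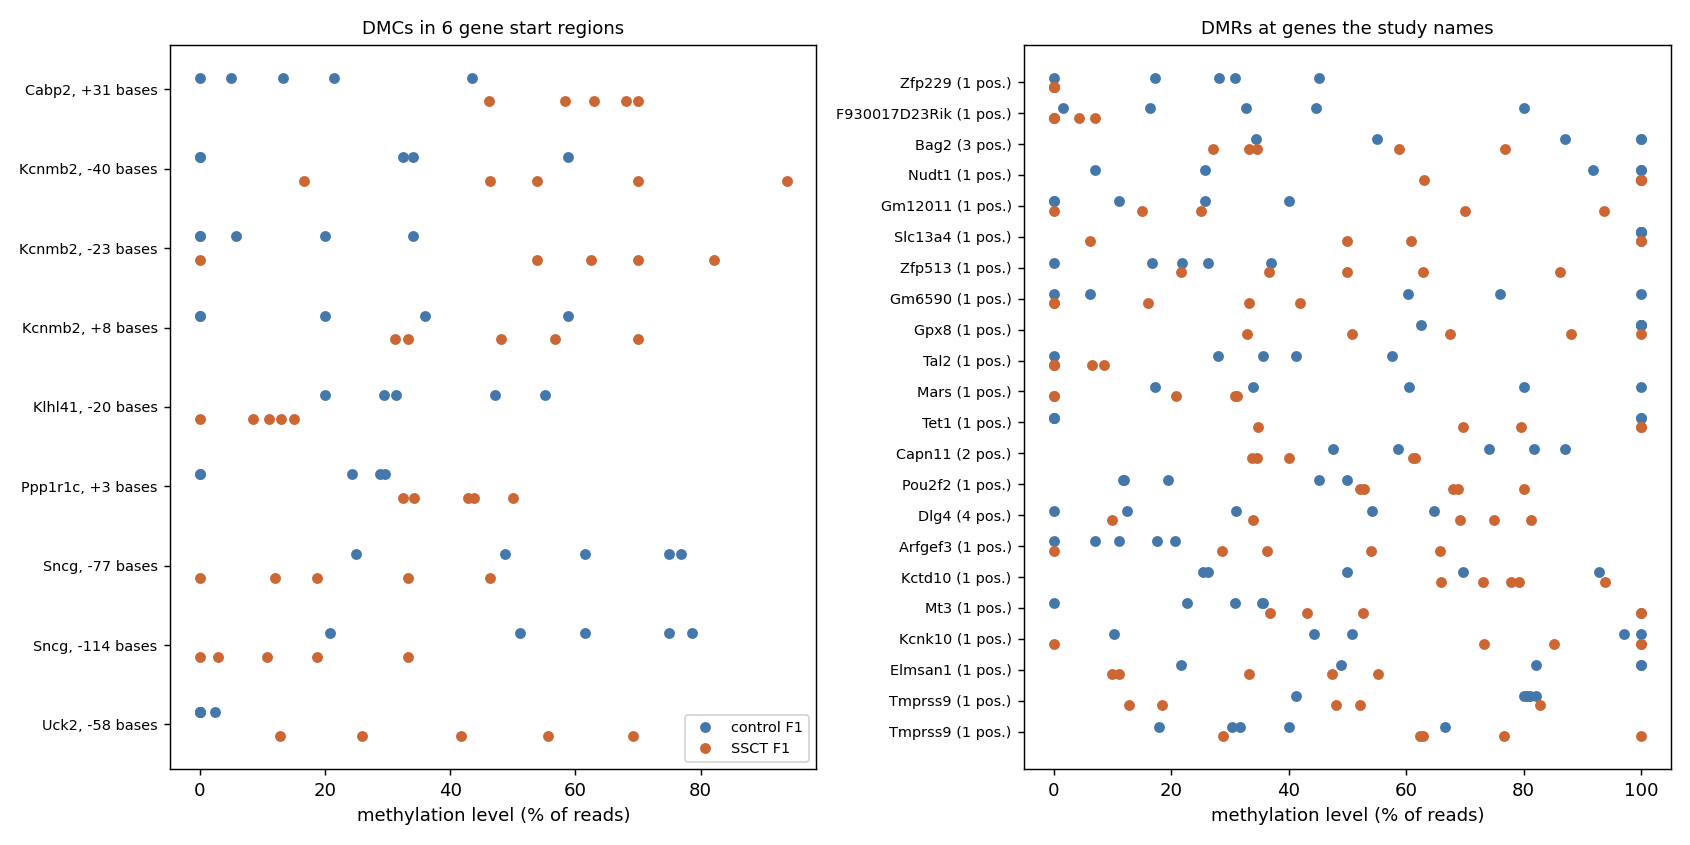
Points are the methylation level in percent in single mice, control F1 in blue and SSCT F1 in orange, on the left for the 9 called CpGs of the 6 printed start regions, labelled by their distance from the gene start, and on the right for the 22 DMRs at genes the study names, with the number of compared positions. On the right, the groups are apart at Mt3 and Pou2f2 and overlap at the other 20.

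The founders, 3 SSCT F0 and 3 control F0 males of 16 to 18 months, were read at the same places. By the study's methods these males sired the offspring, so they are relatives of the F1 mice, although no library is used in both comparisons. SSCT F0 replicate 3 covered few positions, so that 25 of the 484 DMRs could be compared in all 6 founders. There the founder difference had the direction of the F1 difference at 18 and the opposite at 7, with a median of 14.49 points in the F1 direction, while over all 18482 windows covered 47.0% had the same direction and 45.4% the opposite. Of the DMCs, 96 were covered in all 6, with 54 in the same and 41 in the opposite direction and a median of 6.11 points, beside 24.2% and 23.5% over all CpGs covered. Without SSCT F0 replicate 3, 223 DMRs could be compared, of which 117 had the same and 100 the opposite direction, with a median of 1.32 points, beside 43.3% and 43.2% over all windows covered. Of the DMCs, 954 were then covered, with 458 in the same and 479 in the opposite direction and a median of -0.21 points, beside 22.5% and 22.4% over all CpGs covered. The 25 windows are thus the ones covered by the shallow library, and the founders differ from the offspring in age and in the host of the germ cells, whose parts were not tested.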

How the data were processed

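RRBS libraries of sperm were sequenced as 50 bp single reads, pooled by 8 or 9 before sequencing. Per the submitters' processing notes, FastQC, Trim Galore 0.4.1, Bismark 0.20.0 and methylKit 1.7.0 were used with the GRCm38 (mm10) build. For each CpG position and strand, the authors deposited the coverage as a count of reads together with the methylated fraction, and the product of both was rounded to methylated reads. Each library is 1 mouse. Positions needed 10 reads in every library and at most the 99.9th percentile of coverage, and windows of 1000 bp summed their reads. Coverage was a median of 32.0 to 47.0 reads, at which 1 read is worth several points, and reads are not independent molecules, so the chi-square test covers counting error only.

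Tests were a logistic likelihood-ratio test (numpy 2.4.6, scipy 1.17.1, Python 3.11.15), the same scaled by the Pearson chi-square (F test), limma 3.58.1 in R 4.3.3, and exact permutation tests over mice, two-sided unless stated, whose smallest p is 0.00794. They were tested on simulated data. Gene spans and starts are from RefSeq on GRCm38.p6, which gave no exons or introns here. Windows named are the 10 with the largest difference in each direction among DMRs of at least 3 positions, DMRs overlapping a start region, and list members with a call. The members and lists were chosen with earlier results of these data known. Founders and the 10 other offspring libraries were read at the same positions. Alternatives were the coverage minimum, the upper limit, merged strands, other thresholds, tests and windows. Further ones were unweighted means, Storey q-values, the replicate block and leaving out each library. The titles' names were run as well, which compares 10 other libraries. Counting the calls made whichever library was left out was added after the data had been seen.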

Additional observations from a re-analysis of the deposited data

Results flagged for a closer look

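Among 100 groups of 5 mice examined, 9 held a mouse far from the other 4 by Dixon's ratio, and chance gives about 1 in 20 for normally distributed values. These values are not so distributed, since in 4 of the 9 groups the other 4 mice are tied, and many of the groups are windows chosen for large differences. In the Cfap58 window on chromosome 19, SSCT F1 replicate 3 was at 83.3% with the others at 48.1 to 57.4%. In the 9330111N05Rik window on chromosome 13, control F1 replicate 3 was at 6.67% with the others at 52.4 to 70.4%. In the Marchf3 window, SSCT F1 replicate 5 was at 16.7% with the others at 0. In the window of Cdk5 and Asic3, SSCT F1 replicate 1 was at 42.6% with the others at 75%. In the Gm34121 window, control F1 replicate 3 was at 1.43% with the others at 36.9 to 48.0%. At the Meg3 control region, SSCT F1 replicate 4 was at 94.2% with the others at 96.7 to 97.7%. At the Snrpn and Nap1l5 starts, SSCT F1 replicate 3 was at 2.76% with the others at 0 and at 5.30% with the others at 0.885 to 1.95%. At the called CpG of Uck2, control F1 replicate 5 was at 2.38% with the others at 0.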

How the results depend on the processing

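The counts of 2813 DMCs and 484 DMRs moved with the coverage minimum, to 6177 and 869 with 5 reads and to 583 and 136 with 20 reads, where 2 of the 3 named windows still covered were called. A difference above 10 points gave 35453 and 6706. Windows of at least 3 positions gave 46 DMRs. The F test gave 0 DMCs, 0 DMRs and 0 of the 20 named windows (1471 CpGs and 246 windows at an unadjusted p under 0.05), and limma 0 and 0 (1785 and 297). Calls made whichever library was left out (an alternative chosen after seeing the data) were 741 and 130. Merged strands, no upper limit, Storey q-values, unweighted means and shifted windows stayed within 1.5 times. Leaving out each library and filtering anew gave 3800 to 4183 DMCs and 647 to 717 DMRs. At the same positions, without filtering anew, 16 to 20 of the 20 named windows stayed called. The titles give the F1 names to 10 other libraries, so that comparison shares no library with this one and cannot test its stability. It called 2720 DMCs (1304 hypomethylated, 1416 hypermethylated) and 514 DMRs (243 and 271). In it (libraries titled SSCT F1 against those titled Control F1), the mean difference was 0.010 points, single-mouse deviations 172.2 and between-minus-within distance 0.0016. In the 10 libraries compared here, the distance turned to 0.0019 with 20 reads. None of these values passed a test. Leaving out each library, the mean difference ranged from -0.123 to -0.032 points, deviations from -245.0 to -50.9 and distance from -0.0106 to 0.0182. The cause of the turns of the distance was not tested.

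Replicate numbers pair no animals: deviations of same-numbered mice correlated at -0.007 to 0.005 over 5 pairs, and 1 of 10 libraries correlated best with its own number. With the replicate number as a block, 2784 DMCs and 482 DMRs were called, and the mean difference (p = 0.312) and the deviations (p = 0.5, exact sign-flip tests) were not. Depth limits single CpGs, where 10 reads set the minimum.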

Other observations

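Single called CpGs also appeared in other start regions. At Ehmt1, a histone methyltransferase, the called CpG 52 bases before the start was at 38.5, 5.26, 53.8, 28 and 27.3% in control F1 and at 0, 0, 0, 0 and 15.8% in SSCT F1 (-26.0 points, q = 8.58e-08, exact p = 0.0159), while the other 16 compared positions of the region lay between 0 and 23.8% in single mice, with a median difference of 0.0 points. It was not called without control F1 replicate 3 (-22.3), control F1 replicate 1 (-24.5) or SSCT F1 replicate 2 (-25). At Dbnl, an actin-binding protein, the called CpG was at 57.1, 12.5, 63.6, 0 and 26.3% in control F1 and at 0 in all SSCT F1 mice (-26.5 points, exact p = 0.0476), the opposite strand differed by 0.0 points, and the call was lost without control F1 replicate 1 (-20.3) or 3 (-20.8). At Pim1, a kinase, the called CpG 30 bases after the start was at 33.3, 64.0, 6.90, 22.2 and 16.7% in control F1 and at 83.7, 42.5, 87.5, 71.4 and 47.4% in SSCT F1 (39.5 points, exact p = 0.0317) and stayed called without any single library, and the 1 other compared position lay between 0 and 25.9% in single mice. These 3 were named after their values were seen.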
